A study of Gallus gallus with 16 samples.

Results

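The BMP response genes described here are 10 genes that BMP signalling is known to switch on in many tissues: ID1, ID2, ID3, SMAD6, SMAD7, GHOX-7 (the older name under which the tables list chicken MSX1), MSX2, HEY1, DLX3 and DLX5. They were chosen by name, with earlier results of these data known. All 10 had a column in both expression tables, among 15512 genes common to both. RNA-seq was made from growing feather follicles of white leghorn chickens, roosters according to the study, with no treatment and no altered genotype in any group. The sex of the birds behind each library was not checked against its transcripts. The age of the birds is not given in the sources used here. In each of 4 regions the epithelium was separated from the mesenchyme, here called pulp, which gives 8 groups: lateral and medial side of primary remiges (the flight feathers of the wing), dorsal plumes and breast plumes, each as epithelium and as pulp. The lateral side and the dorsal plumes form the narrow-vane group of the study, and the medial side and the breast plumes the wide-vane group. A group comprised 2 libraries, marked I and II in the labels. The study calls them biological replicates and also batches, the word used here. The labels do not say whether the numeral also marks a shared preparation. By the library names, remige epithelium of batch I had the same sequencing lane number as all remige libraries of batch II. Remige pulp of batch I has no lane number, and all plume libraries share the same one. The numeral thus does not separate lane numbers in remige epithelium or in plumes, and in remige pulp this cannot be told. Each library pooled 3 proximal follicles for remiges or 25 for plumes. The lateral and medial samples were cut from the same remige follicles, and how many birds a library or a batch came from is not given in the sources used here.

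BMPs are secreted ligands that bind paired serine/threonine kinase receptors, which phosphorylate SMAD1, SMAD5 and SMAD9. With SMAD4 these enter the nucleus and bind control regions of target genes. The response genes fall into several roles. ID proteins are helix-loop-helix factors that lack a DNA-binding region and keep partner factors off DNA. SMAD6 and SMAD7 are inhibitory SMADs that damp the pathway that induces them. MSX1, MSX2, DLX3 and DLX5 are homeodomain transcription factors of skin appendages, limbs and bone, and HEY1 is a helix-loop-helix repressor shared with Notch signalling. In feathers, BMPs and their antagonists are known to act on the branching of the vane, and the study asked which genes accompany narrow and wide vanes. None of these genes answers to BMPs alone, so a transcript level is not a measure of BMP signalling.

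Depth ranged from 23.4 to 26.1 M alignments (M for 1000000) in plume pulp, 29.4 to 37.0 in remige pulp, 32.6 to 37.7 in plume epithelium and 42.2 to 45.8 in remige epithelium. Levels are given as TPM, that is, the deposited RPKM of a library rescaled to sum to 1000000. The tables hold no reads per gene, so the error of a level was taken from how far apart the libraries of its group lay. The tissue labels were checked against marker genes. All 14 measured fibroblast markers, 12 of 12 endothelial and 7 of 7 leukocyte markers were lower in epithelium than in pulp in both feather types, and 17 of 18 keratinocyte markers were higher. The summed level of the keratinocyte markers was nevertheless between 1125 and 1906 TPM in the 8 pulp libraries, against 6030 to 8504 TPM in epithelium, so the pulp libraries were not free of epithelial transcripts.

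Levels over all 16 libraries differed widely between the genes. ID2 ran from 77.4 to 402 TPM, ID3 from 96.2 to 371 TPM and MSX2 from 19.7 to 428 TPM. ID1 stayed between 34.9 and 176 TPM and HEY1 between 45.3 and 104 TPM, which made HEY1 the steadiest of the abundant genes. DLX3 spanned 8.66 to 138 TPM, DLX5 4.44 to 112 TPM and GHOX-7 0.231 to 98.8 TPM. SMAD6 was low throughout, between 6.39 and 23.0 TPM. SMAD7 was at or near 0 in most libraries, with a maximum of 3.01 TPM.

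**Figure D1:**
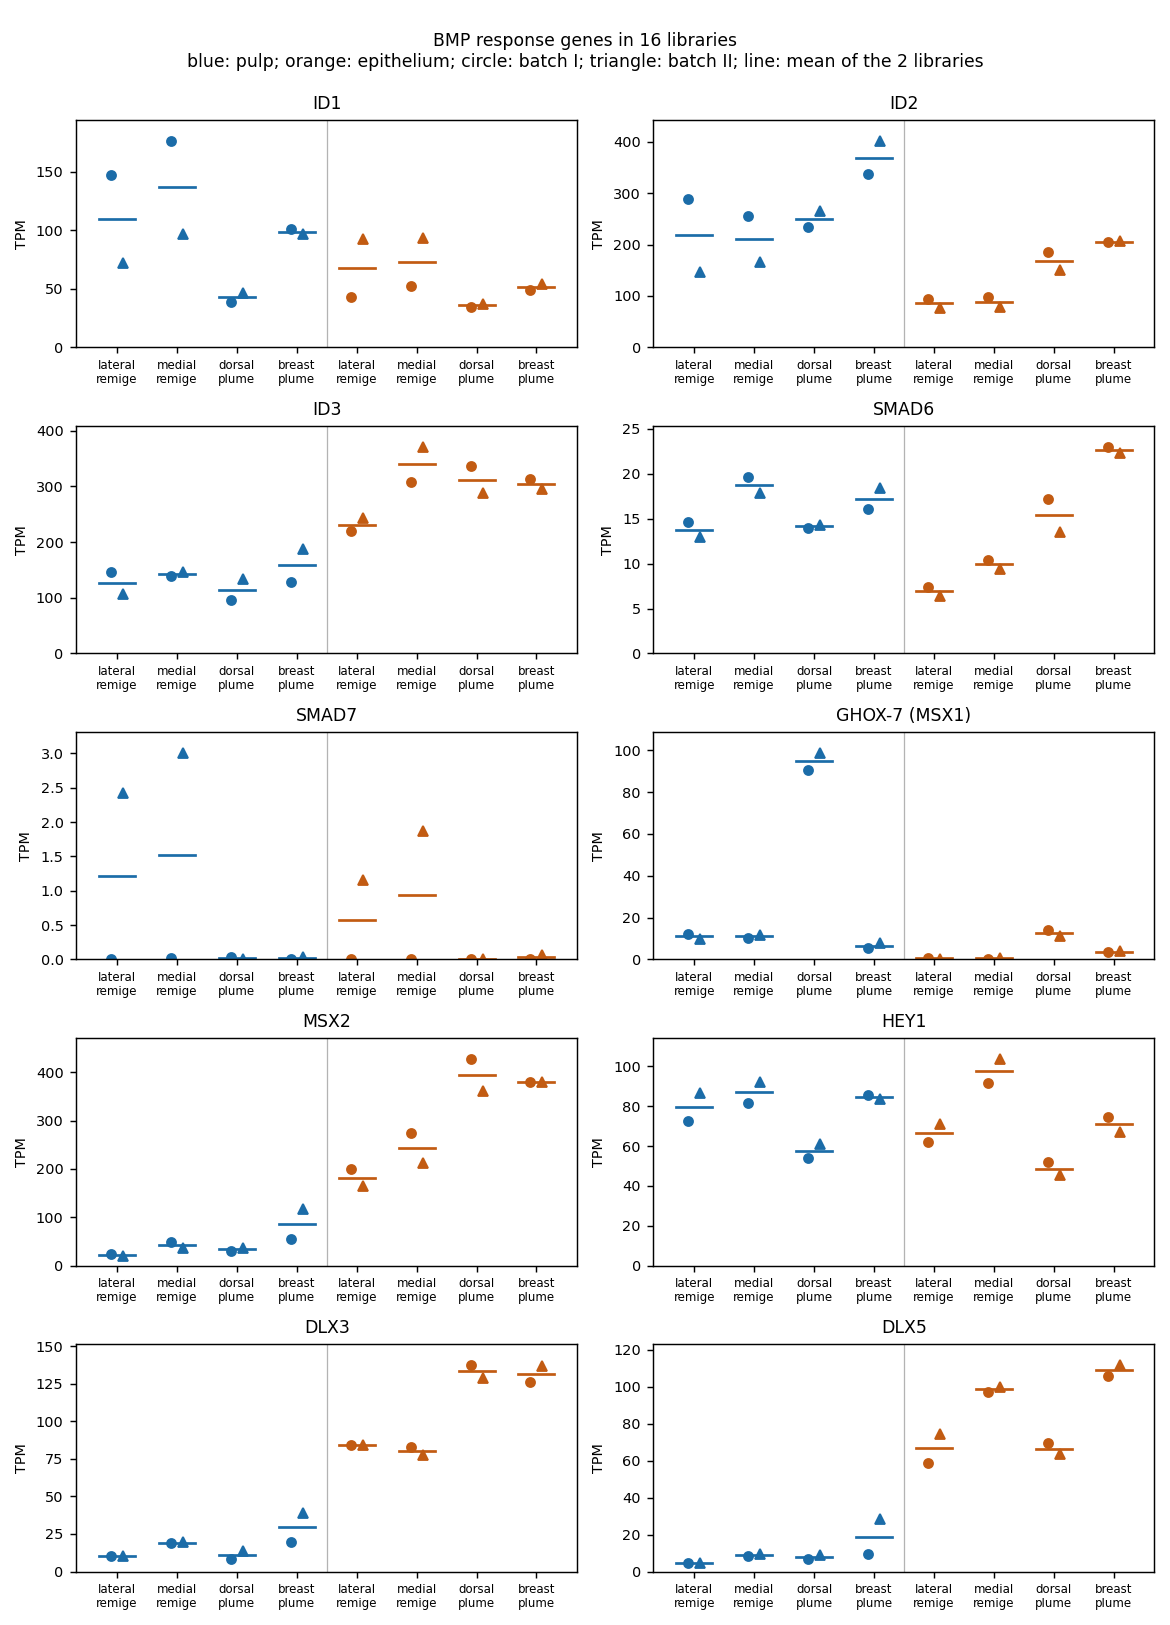
TPM (linear axis from 0) of each BMP response gene in the 8 groups; circles are batch I, triangles batch II, lines the mean of the 2 libraries, blue is pulp and orange epithelium. GHOX-7 stands out in dorsal plume pulp at 90.6 and 98.8 TPM, while MSX2, DLX3 and DLX5 are higher in all epithelium libraries than in any pulp library.

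Differences were tested with limma on log2(TPM + 1) within each feather type, with Benjamini-Hochberg adjustment over all genes tested (12954 in remiges and 13246 in plumes), and a gene passed at an adjusted p under 0.05. Fold changes on this scale understate the change of low genes. Between epithelium and pulp, 7 of the 10 genes passed in remiges (4 higher and 3 lower in epithelium) and 8 of 9 tested in plumes (4 higher and 4 lower). A tissue difference was common: over all genes tested 18.7% passed upwards and 44.9% downwards in remige epithelium, and 30.2% upwards and 47.0% downwards in plume epithelium. SMAD7 was not tested in plumes because its mean was under 1 TPM in every plume group. The median over all genes of the epithelium-minus-pulp difference was -0.35 in remiges and -0.18 in plumes on the log2 scale. With quantile normalization these medians became 0.17 and 0.15, and the calls over all genes turned from 2417 higher and 5822 lower to 4816 and 3530 in remiges, and from 4001 and 6226 to 6125 and 4562 in plumes.

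Between narrow and wide vanes, no response gene passed in remiges, and several passed in plumes. In lateral against medial pulp limma called 0 of 10 (0.0% of all genes higher and 0.0% lower), with 4 of the 10 and 468 of all 12954 genes at an unadjusted p under 0.05. In lateral against medial epithelium it also called 0 of 10 (0.0% of all genes higher and 0.00772% lower, which is 1 gene), with 4 of the 10 and 424 of all genes at an unadjusted p under 0.05. In dorsal against breast pulp 6 of 9 passed: GHOX-7 rose, where 13.0% of all genes did, and ID1, ID2, MSX2, HEY1 and DLX3 fell, where 15.2% of all genes did. In dorsal against breast epithelium 4 of 9 passed: GHOX-7 rose, where 8.55% of all genes did, and ID1, SMAD6 and HEY1 fell, where 9.1% of all genes did. With RPKM as deposited the split over all genes in plume epithelium was 986 higher and 1728 lower in place of 1132 and 1205. The median difference of the tested response genes was -0.56 in plume pulp, beside -0.06 over all genes, and -0.30 in plume epithelium, beside -0.003. In remiges it was -0.26 in pulp, beside -0.02 over all genes, and -0.31 in epithelium, beside -0.03.

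The counts in plumes changed when single libraries were left out. This also leaves fewer libraries to estimate the spread, so a lost call need not mean that a difference rested on that library. Some estimates of lost calls grew, as for ID1 in epithelium (-0.58 without breast epithelium of batch I, -0.51 with all libraries). Others shrank, as for DLX3 in pulp (-0.805 without breast pulp of batch II, -1.27 with all libraries). In pulp 6 called genes became 2 without dorsal pulp of batch I and 8 without breast pulp of batch I. In epithelium 4 became 1 without breast epithelium of batch I, and 2 without breast epithelium of batch II or without dorsal epithelium of batch II. GHOX-7 passed in both tissues in each of the 13 alternative analyses, and ID1 did in pulp.

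**Figure D2:**
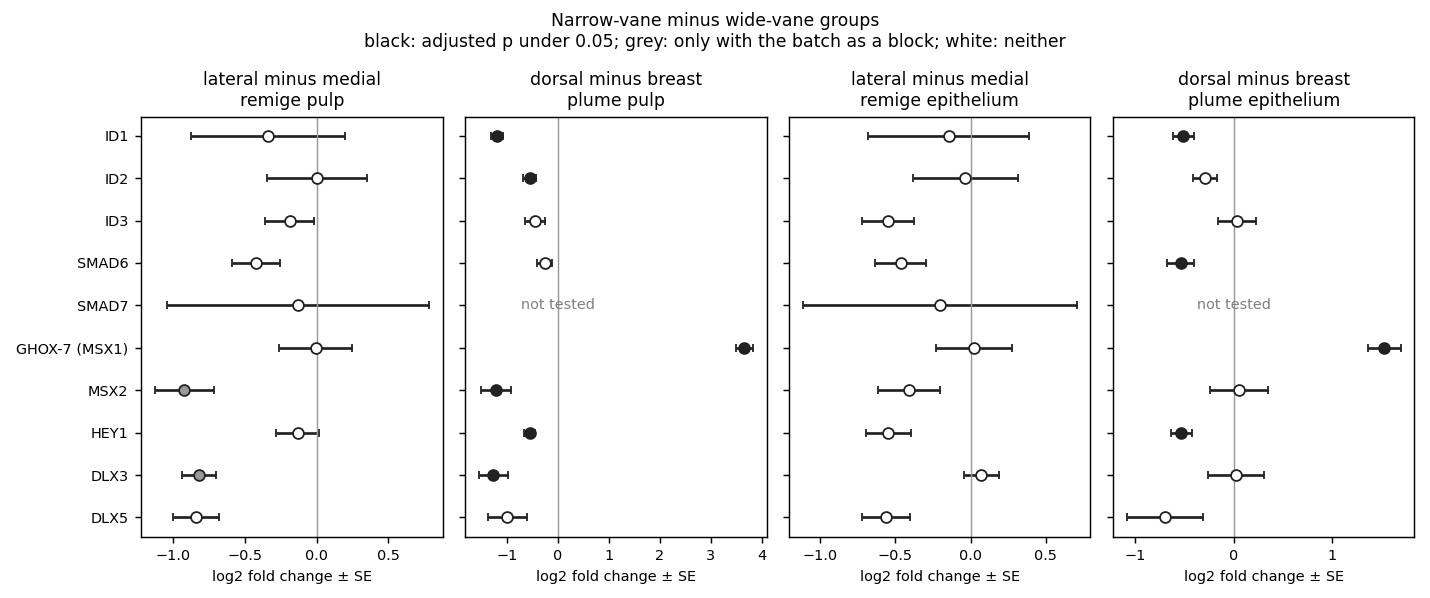
Log2 fold change ± SE of each gene, narrow minus wide vanes, in 4 comparisons (the horizontal axes differ in range); black points passed at an adjusted p under 0.05, grey only in the fit that blocks on batch. In plumes GHOX-7 lies at 3.66 in pulp and 1.53 in epithelium while the other points that passed lie below 0.

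Because the lateral and medial samples of a batch came from the same follicles, the batch was also fitted as a block. The block is 1 shift common to pulp and epithelium, so it does not pair the sides within each tissue. Under this fit 2 response genes passed in lateral against medial pulp, MSX2 and DLX3, both lower in lateral pulp, where 0.17% of all genes were called higher and 0.108% lower. Among the response genes the block changed 1 other call, that of DLX3 in the comparison of plume tract differences between tissues.

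Among the ID genes, which encode the inhibitors of helix-loop-helix factors, ID2 was higher in pulp in both feather types, ID1 in plumes, and ID3 was higher in epithelium in both. ID1 was at 38.7 and 46.7 TPM in dorsal plume pulp (batch I and II), and at 101 and 96.4 TPM in breast plume pulp. Both dorsal libraries thus lay below both breast libraries, by 2.61-fold in batch I and 2.06-fold in batch II. The log2 fold change was -1.20 ± 0.11 (SE, adjusted p = 1.19e-04). In plume epithelium ID1 was at 34.9 and 37.0 TPM in dorsal and 49.2 and 54.2 TPM in breast libraries, again without overlap, a log2 fold change of -0.51 ± 0.11 (adjusted p = 0.0151). That call was lost without breast epithelium of batch I (adjusted p = 0.0649), breast epithelium of batch II (0.124) or dorsal epithelium of batch I (0.0606), in a range of 0.00792 to 0.124 over the alternatives. ID1 was 1.61-fold higher in plume pulp than in plume epithelium (log2 fold change of epithelium against pulp -0.58 ± 0.08, adjusted p = 1.33e-04), although dorsal pulp overlapped the epithelium libraries.

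In remiges ID1 followed the batch more than the side. Pulp held 147 TPM in lateral and 176 TPM in medial libraries of batch I, but 72.1 and 96.8 TPM in those of batch II. Epithelium went the other way, with 42.9 and 52.2 TPM in batch I and 92.4 and 93.4 TPM in batch II. The lateral and medial libraries overlapped in both tissues, and the side difference of -0.34 ± 0.53 in pulp and -0.15 ± 0.53 in epithelium was well within its error. That error includes the opposite batch changes of the tissues. A block with 1 shift for both tissues could not remove them (SE 0.55). Within each batch the lateral level was below the medial level in both tissues, at 0.836 and 0.744 of it in pulp and 0.822 and 0.989 of it in epithelium. The difference between remige epithelium and pulp did not pass for ID1 (-0.80 ± 0.38, adjusted p = 0.105).

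ID2 was the most abundant response gene in pulp. It was at 289 and 147 TPM in lateral and 255 and 166 TPM in medial remige pulp, at 235 and 265 TPM in dorsal plume pulp, and at 336 and 402 TPM in breast plume pulp. The breast libraries were the highest of all 16, and dorsal pulp lay below them in both batches (log2 fold change -0.56 ± 0.12, adjusted p = 0.0104). This call was lost without dorsal pulp of batch I (adjusted p = 0.103) or without breast pulp of batch II (0.0779), in a range of 0.00513 to 0.103. Epithelium held less ID2: 94.6 and 77.4 TPM in lateral and 97.7 and 78.9 TPM in medial remiges, 185 and 151 TPM in dorsal and 205 and 206 TPM in breast plumes. In both feather types all pulp libraries of a feather lay above its epithelium libraries, by 2.46-fold in remiges (log2 fold change -1.24 ± 0.25, adjusted p = 0.00416) and 1.66-fold in plumes (-0.70 ± 0.09, adjusted p = 6.87e-05). The tract difference in epithelium (-0.30 ± 0.12) did not pass (adjusted p = 0.136), and the remige sides differed by 0.001 ± 0.35 in pulp and -0.04 ± 0.35 in epithelium.

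ID3 had the opposite tissue pattern. In epithelium it was at 219 and 244 TPM in lateral and 309 and 371 TPM in medial remiges, 337 and 287 TPM in dorsal and 313 and 295 TPM in breast plumes. In pulp it was at 146 and 108 TPM in lateral and 139.9 and 146 TPM in medial remiges, 96.2 and 133 TPM in dorsal and 129 and 187 TPM in breast plumes. Every epithelium library exceeded every pulp library, by 2.12-fold in remiges (log2 fold change 1.06 ± 0.12, adjusted p = 2.95e-04) and 2.26-fold in plumes (1.21 ± 0.14, adjusted p = 4.1e-05). In remige epithelium both lateral libraries lay below both medial ones, at 0.710 of the medial level in batch I and 0.657 in batch II, but the difference of -0.55 ± 0.17 did not pass (adjusted p = 1.0). The plume tracts overlapped in both tissues. ID3 in plume pulp (-0.46 ± 0.19, adjusted p = 0.118) passed only without breast pulp of batch I (0.0457), in a range of 0.0457 to 0.558.

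Of the inhibitory SMADs, SMAD6, which acts mainly on BMP receptors, was measured well enough to follow. In remige pulp it was at 14.6 and 12.9 TPM in lateral and 19.6 and 17.9 TPM in medial libraries, and in remige epithelium at 7.44 and 6.39 TPM in lateral and 10.5 and 9.39 TPM in medial libraries. In all 4 pairs of the same batch and tissue the medial side was higher, by 1.34- and 1.38-fold in pulp and 1.40- and 1.47-fold in epithelium, with no overlap between the sides. The side differences of -0.42 ± 0.17 in pulp and -0.47 ± 0.17 in epithelium did not pass (adjusted p = 1.0 for each). In plume epithelium SMAD6 fell from 23.0 and 22.3 TPM in breast to 17.2 and 13.5 TPM in dorsal libraries (log2 fold change -0.54 ± 0.14, adjusted p = 0.0313). Leaving out any of 5 libraries removed this call: breast epithelium of batch I (adjusted p = 0.176) or II (0.14), dorsal epithelium of batch II (0.0989), and dorsal pulp of batch I (0.0668) or II (0.0671), in a range of 0.00963 to 0.176. In plume pulp the dorsal libraries were at 14.02 and 14.29 TPM and the breast libraries at 16.1 and 18.4 TPM, a difference of -0.26 ± 0.14 that did not pass (adjusted p = 0.198).

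The tissue pattern of SMAD6 differed in sign between the feathers, which were not tested against each other. In remiges it was 1.93-fold higher in pulp (log2 fold change of epithelium against pulp -0.88 ± 0.12, adjusted p = 6.42e-04), a call that quantile normalization removed (-0.24, adjusted p = 0.148, the highest over the alternatives, whose lowest was 7.41e-05). In plumes epithelium was 1.21-fold higher with overlapping libraries (0.24 ± 0.10, adjusted p = 0.0503). This passed with RPKM as deposited (0.038), with quantile normalization (2.57e-04) and without dorsal epithelium of batch II (0.0106), in a range of 2.57e-04 to 0.151.

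The SMAD7 column, named for the inhibitory SMAD that acts on both TGF-beta and BMP receptors, held almost no signal and followed the batch. In remiges the batch I libraries were at 0, 0.02, 0 and 0 TPM, in the order lateral pulp, medial pulp, lateral epithelium and medial epithelium, and the batch II libraries at 2.42, 3.01, 1.16 and 1.87 TPM. In plumes no library exceeded 0.06 TPM. Only 9 of 15795 genes of the remige table shared the pattern of at most 0.05 TPM in all 4 batch I libraries and at least 1 TPM in all 4 of batch II, and 0 had the reverse. The cause of this pattern was not tested. The gene passed the minimum level in remiges only through batch II, and no difference of side or tissue passed. Both tables also have a column SMAD7A, whose relation to the SMAD7 column is not given in the sources used here and which was added after the SMAD7 values had been seen. SMAD7A was at 10.3 and 10.4 TPM in lateral and 11.1 and 10.7 TPM in medial remige pulp, and at 15.9 and 16.3 TPM in dorsal and 13.2 and 13.1 TPM in breast plume pulp. In epithelium it was at 5.95 and 4.43 TPM in lateral and 8.14 and 5.30 TPM in medial remiges, and at 12.4 and 10.6 TPM in dorsal and 15.2 and 16.7 TPM in breast plumes. It was lower in epithelium than in pulp in remiges (-0.77 ± 0.17, adjusted p = 0.00588), which passed in 12 of 13 alternatives (0.0014 to 0.862). Dorsal against breast plumes gave -0.44 ± 0.13 in epithelium (adjusted p = 0.0443, passing in 6 of 13 alternatives, 0.0128 to 0.237) and 0.27 ± 0.13 in pulp (adjusted p = 0.144). The difference between these, 0.72 ± 0.18, had an adjusted p of 0.0216 and passed in 7 of 13 alternatives (0.006 to 0.0988).

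The MSX homeobox genes, whose products act mostly as repressors and mark BMP-responsive mesenchyme and epithelium in limb and skin of vertebrates, divided sharply between the tissues. GHOX-7, chicken MSX1, was highest in dorsal plume pulp, at 90.6 and 98.8 TPM. Breast plume pulp held 5.60 and 7.67 TPM, lateral remige pulp 12.2 and 9.80 TPM, and medial remige pulp 10.3 and 11.7 TPM. The dorsal libraries thus exceeded every other pulp library several-fold. The remaining pulp libraries lay between 5.60 and 12.2 TPM, with both breast libraries below all remige libraries. Dorsal exceeded breast pulp 16.2-fold in batch I and 12.9-fold in batch II (log2 fold change 3.66 ± 0.17, adjusted p = 4.63e-06). In epithelium GHOX-7 was at 14.2 and 11.4 TPM in dorsal and 3.61 and 3.92 TPM in breast plumes, 3.93- and 2.92-fold apart (log2 fold change 1.53 ± 0.17, adjusted p = 6.99e-04). Remige epithelium held only 0.87 and 0.23 TPM on the lateral and 0.44 and 0.55 TPM on the medial side, under 1 TPM in every library, and its side ratio turned over between batches. The remige sides did not separate in pulp either (-0.005 ± 0.25). Pulp exceeded epithelium 21.0-fold in remiges (log2 fold change of epithelium against pulp -2.99 ± 0.18, adjusted p = 1.2e-05) and 6.11-fold in plumes (-1.73 ± 0.12, adjusted p = 1.29e-06). In plumes the libraries overlapped, since dorsal epithelium held more GHOX-7 than breast pulp.

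MSX2 was mainly epithelial. It was at 199 and 165 TPM in lateral and 275 and 212 TPM in medial remige epithelium, and at 428 and 361 TPM in dorsal and 379.4 and 379.6 TPM in breast plume epithelium. In pulp it was at 23.8 and 19.7 TPM in lateral and 47.8 and 36.6 TPM in medial remiges, and at 30.7 and 37.1 TPM in dorsal and 53.9 and 118 TPM in breast plumes. Epithelium exceeded pulp 6.66-fold in remiges (log2 fold change 2.76 ± 0.14, adjusted p = 6.59e-06) and 6.47-fold in plumes (2.87 ± 0.21, adjusted p = 1.85e-06). The study had itself singled out MSX2 in these samples, so its difference between narrow and wide vanes is not independent evidence. In remige pulp both lateral libraries lay below both medial ones, with medial over lateral ratios of 2.01 in batch I and 1.86 in batch II. The log2 fold change of -0.92 had an SE of 0.20 and an adjusted p of 0.395. Fitted with the block it had an SE of 0.07 and an adjusted p of 0.0232, in a range of 0.0232 to 1.0 over the alternatives. In remige epithelium the medial side was also higher, by 1.38- and 1.29-fold, without overlap (-0.41 ± 0.20, adjusted p = 1.0).

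In plume pulp MSX2 fell in dorsal against breast libraries (log2 fold change -1.22 ± 0.29, adjusted p = 0.0158). The breast libraries differed 2.18-fold from each other, and the breast over dorsal ratio was 1.75 in batch I and 3.17 in batch II. The call was lost without dorsal pulp of batch I (adjusted p = 0.141) or of batch II (0.0757), in a range of 6.97e-04 to 0.141. In plume epithelium the tracts overlapped, with a difference of 0.05 ± 0.29. The share of MSX1 in the summed level of both MSX genes makes the tract difference plain. It was 74.7% and 72.7% in dorsal plume pulp, 9.41% and 6.13% in breast plume pulp, 33.8% and 33.2% in lateral and 17.7% and 24.2% in medial remige pulp, and at most 3.21% in any epithelium library. Dorsal plume pulp was the only group in which MSX1 was the more abundant of the pair.

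HEY1, the repressor that Notch and, in endothelial cells of mammals, BMP receptors induce, was lower in dorsal plumes in both tissues. Pulp held 53.9 and 61.0 TPM in dorsal and 85.9 and 83.8 TPM in breast plumes (log2 fold change -0.56 ± 0.11, adjusted p = 0.00554). Epithelium held 52.0 and 45.3 TPM in dorsal and 74.8 and 67.0 TPM in breast plumes (-0.53 ± 0.11, adjusted p = 0.0110). The groups did not overlap in either tissue, and the sizes were nearly equal. The pulp call was lost without dorsal pulp of batch I (adjusted p = 0.0553, in a range of 0.00147 to 0.0553), and the epithelium call without breast epithelium of batch I (0.107) or dorsal epithelium of batch II (0.0538), in a range of 0.00324 to 0.107. In remiges HEY1 was at 72.4 and 86.8 TPM in lateral and 81.8 and 92.3 TPM in medial pulp, which overlapped. In remige epithelium it was at 61.9 and 71.0 TPM in lateral and 91.5 and 104 TPM in medial libraries, which did not overlap, with medial over lateral ratios of 1.48 and 1.46 (-0.55 ± 0.15, adjusted p = 1.0). Between the tissues HEY1 differed little: -0.05 ± 0.11 in remiges, where the sign turned with RPKM as deposited and with quantile normalization, and -0.25 ± 0.08 in plumes (adjusted p = 0.0153). The plume call was lost without breast epithelium of batch II (0.0676) or dorsal pulp of batch II (0.06), in a range of 0.00726 to 0.0676.

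The DLX genes, which encode distal-less homeodomain factors, followed MSX2 in being epithelial. DLX3, which in mice is needed for hair formation, was at 84.4 and 84.2 TPM in lateral and 82.6 and 77.8 TPM in medial remige epithelium. It was at 138 and 129 TPM in dorsal and 126 and 137 TPM in breast plume epithelium. In epithelium the sides differed by 0.07 ± 0.12 and the tracts by 0.02 ± 0.29 on the log2 scale, and neither passed. In pulp the narrow-vane libraries were lower. DLX3 was at 10.1 and 10.7 TPM in lateral and 18.8 and 19.3 TPM in medial remige pulp, and at 8.66 and 13.8 TPM in dorsal and 19.9 and 38.7 TPM in breast plume pulp. The libraries of the narrow and wide groups did not overlap in either feather. In remige pulp the medial over lateral ratio was 1.86 and 1.81 in the respective batches (log2 fold change -0.82 ± 0.12, adjusted p = 0.172, and 0.0366 with the block, in a range of 0.0366 to 0.52). In plume pulp the breast over dorsal ratio was 2.30 and 2.80 (-1.27 ± 0.29, adjusted p = 0.0115). This call was lost without dorsal pulp of batch I (0.124) or breast pulp of batch II (0.0613), in a range of 0.0042 to 0.124. Epithelium exceeded pulp 5.59-fold in remiges (log2 fold change 2.46 ± 0.08, adjusted p = 1.06e-06) and 6.53-fold in plumes (2.84 ± 0.20, adjusted p = 1.66e-06).

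DLX5, known for its part in limb, craniofacial and bone development, was higher in epithelium, by 12.2-fold in remiges (log2 fold change 3.46 ± 0.11, adjusted p = 9.46e-07) and 6.59-fold in plumes (2.80 ± 0.27, adjusted p = 1.43e-05). In epithelium its narrow-vane libraries lay below the wide-vane ones: 58.8 and 74.6 TPM in lateral against 97.1 and 100.1 TPM in medial remiges, and 69.5 and 63.7 TPM in dorsal against 106 and 112 TPM in breast plumes. Neither feather showed overlap, but neither difference passed (-0.57 ± 0.16, adjusted p = 1.0, in remiges and -0.70 ± 0.39, adjusted p = 0.26, in plumes). All 4 plume groups shared 1 estimate of the spread, breast pulp included. Without breast pulp of batch I or of batch II the epithelium difference passed (adjusted p = 0.0217 and 0.0226, in a range of 0.0217 to 0.531). In pulp DLX5 was at 4.65 and 4.44 TPM in lateral and 8.46 and 9.45 TPM in medial remiges, and at 6.67 and 8.95 TPM in dorsal and 9.41 and 28.2 TPM in breast plumes. The remige sides were 1.82- and 2.13-fold apart (-0.84 ± 0.16, adjusted p = 0.289). The breast libraries differed 3.00-fold from each other, and the plume difference of -0.998 ± 0.386 (adjusted p = 0.0888) passed only without breast pulp of batch I (0.00131), in a range of 0.00131 to 0.375.

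**Figure D3:**
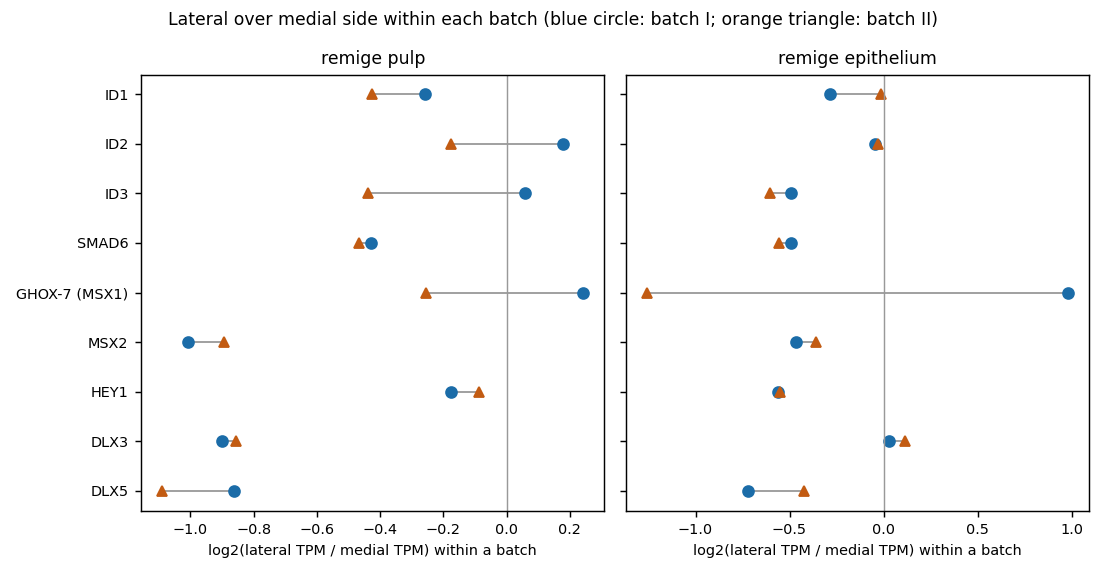
Log2 ratio of lateral to medial TPM within batch I (circles) and batch II (triangles) in remige pulp and epithelium, for the genes other than SMAD7 (the horizontal axes differ in range). ID1, SMAD6, MSX2, HEY1 and DLX5 lie below 0 in both batches of both tissues, DLX3 in both batches of pulp only, and GHOX-7 falls on either side of 0.

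Within a batch, the lateral level was below the medial level in both batches for 7 of the 10 genes in remige pulp (ID1, SMAD6, SMAD7, MSX2, HEY1, DLX3 and DLX5), where 33.3% of all genes did so. In remige epithelium this held for 7 of 10 (ID1, ID2, ID3, SMAD6, MSX2, HEY1 and DLX5), where 37.8% of all genes did so. The pulp count includes SMAD7, although its batch I order rests on almost no signal (lateral side 0, medial side 0.02 TPM). By the stricter count that ignores the batches, both lateral libraries lay below both medial ones for 4 of the 10 genes in remige pulp (SMAD6, MSX2, DLX3 and DLX5), where 12.4% of all genes did so. In remige epithelium 5 of 10 did (ID3, SMAD6, MSX2, HEY1 and DLX5), where 15.2% of all genes did so, and DLX3 was the single gene with both lateral libraries above. Since the genes were chosen with earlier results of these data known, these shares describe the list and do not test it.

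**Figure D4:**
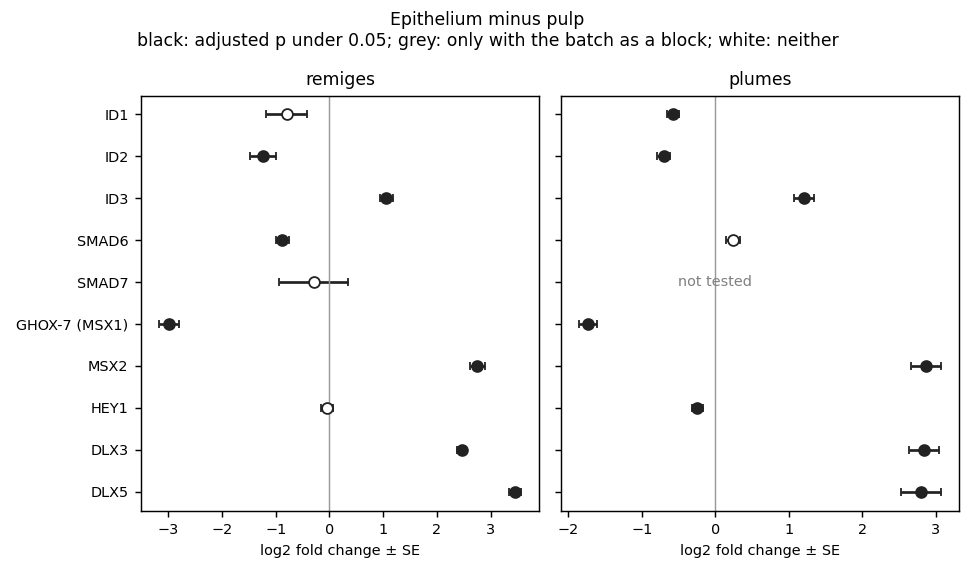
Log2 fold change ± SE of epithelium against pulp in remiges and plumes; black points passed at an adjusted p under 0.05 (SMAD7 was not tested in plumes). ID3, MSX2, DLX3 and DLX5 lie between 1.06 and 3.46 in both feathers, and GHOX-7 lies at -2.99 and -1.73.

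Since MSX2, DLX3 and DLX5 were mainly epithelial, their pulp levels were set beside those of the keratinocyte markers. Of 18 such markers, 13 were below 0 in lateral against medial pulp, with a median of -0.52 on the log2 scale, beside -0.02 over all genes. No marker passed by limma, and 9 had an unadjusted p under 0.05, as did 468 of all 12954 genes. With the block 2 were lower, where 0.108% of all genes were. In dorsal against breast pulp, where 13.0% of all genes rose and 15.2% fell, 1 marker rose, 5 fell and the median was -0.43. Their summed level was 1486 to 1710 TPM in lateral, 1588 to 1906 TPM in medial, 1274 to 1632 TPM in dorsal and 1125 to 1866 TPM in breast pulp, ranges that overlapped. No marker was at 0 in any pulp library but RAB25 in dorsal pulp of batch I. The median marker stood in pulp at 8.44% and 9.76% of its level in the epithelium of the same side and batch in lateral remiges, and at 14.9% and 12.8% in medial remiges. In plumes it stood at 7.28% and 9.27% in dorsal and 9.73% and 18.8% in breast pulp. Single markers spread widely, from 0.32% to 85.9% in lateral, 0.49% to 103% in medial, 0.0% to 86.4% in dorsal and 1.91% to 131% in breast pulp. MSX2 stood at 11.9% in both lateral and 17.4% and 17.3% in both medial libraries, at 7.17% and 10.3% in dorsal and at 14.2% and 31.0% in breast pulp. DLX3 stood at 11.9% and 12.7% in lateral and 22.8% and 24.8% in medial remiges, at 6.29% and 10.7% in dorsal and at 15.8% and 28.3% in breast pulp. DLX5 stood at 5.96% to 9.44% over the remige libraries, at 9.60% and 14.1% in dorsal and at 8.90% and 25.2% in breast pulp. Of the 18 markers, 9 to 11 stood below MSX2 in a given pulp library, 7 to 12 below DLX3 and 4 to 11 below DLX5.

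The breast pulp library of batch II was the highest for the markers' median and for all 3 genes. The markers' median percentage was 1.77- and 1.31-fold higher in medial than in lateral pulp and 1.34- and 2.03-fold higher in breast than in dorsal pulp. The percentages of MSX2 and DLX3 were likewise higher in the wide-vane pulp of each batch, and so were those of DLX5 except in plume batch I. These are ratios of percentages and not of pulp levels, and the epithelium levels they divide by differed too. The summed markers were at 8478 to 8504 TPM in dorsal and 6288 to 6339 TPM in breast epithelium. In remige epithelium they were at 6736 to 6962 TPM in lateral and 6030 to 6615 TPM in medial libraries. The part of epithelial transcripts in the pulp differences of MSX2, DLX3 and DLX5 was not tested. GHOX-7 went the opposite way, being low in epithelium and high in dorsal pulp. In a bulk tissue fewer cells of a type and less RNA per cell cannot be told apart.

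**Figure D5:**
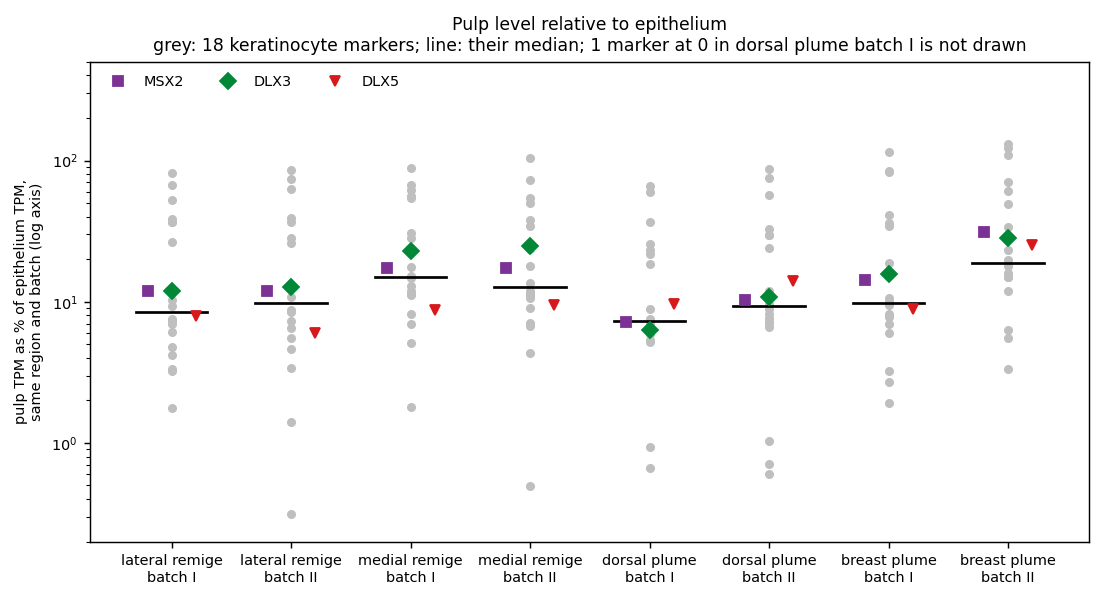
Pulp level as a percentage of the epithelium level of the same region and batch (log axis) in the 8 pulp libraries, for MSX2, DLX3 and DLX5 and for 18 keratinocyte markers (grey points, black line at their median). The median and all 3 genes reach their highest value in breast pulp of batch II, at 18.8% for the markers and 25.2% to 31.0% for the genes.

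In pulp the marker lists of other cells did not all go the same way between the tracts. In dorsal against breast pulp 6 of 12 endothelial markers fell, where 15.2% of all genes did, with a median of -0.69, and their summed level was 684 to 723 TPM in dorsal and 844 to 1112 TPM in breast pulp. In lateral against medial pulp 11 of 12 were below 0 with a median of -0.27, beside -0.02 over all genes. None passed by limma, and 1 had an unadjusted p under 0.05, as did 468 of all 12954 genes. The sums were 920 to 1151 TPM and 1120 to 1250 TPM. Smooth muscle or pericyte markers summed to 175 to 189.5 TPM in dorsal and 250.1 to 339 TPM in breast pulp, and 3 of 5 fell. Leukocyte markers summed to 544 to 559.6 TPM in dorsal and 715 to 876 TPM in breast pulp. Of these 1 of 7 fell, a share no larger than the 15.2% of all genes. The 2 erythrocyte markers summed to 833 to 933 TPM in dorsal and 1073 to 1342 TPM in breast pulp, and neither passed. For each of these 4 lists the sums of the tracts did not overlap, and no marker of them was at 0 in a pulp library. Of 14 fibroblast markers 3 rose in dorsal against breast pulp, where 13.0% of all genes did, and 0 fell. With the block 3 rose and 3 fell, where 14.1% and 16.5% of all genes did. The median of the fibroblast markers was 0.17, and 5 of the 14 were below 0. Their sums were 18069 to 19291 TPM in dorsal and 14845 to 18431 TPM in breast pulp, which overlapped. Of 7 melanocyte markers 1 fell, and the median was 0.27. The part of any of these cells in the lower ID1, ID2 and HEY1 of dorsal pulp was not tested.

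Whether a tract or side difference was larger in pulp or in epithelium was tested directly. In remiges no response gene passed by limma (0.0% of all genes in either direction, 451 genes and 1 of the 10 at an unadjusted p under 0.05). In plumes 2 of 9 passed, where 22.7% of all genes did. GHOX-7 rose more in dorsal pulp than in dorsal epithelium, by 2.13 ± 0.24 on the log2 scale (adjusted p = 5.86e-04), and ID1 fell more in pulp, by 0.68 ± 0.16 (-0.68, adjusted p = 0.0154). The ID1 call was lost without breast epithelium of batch I (adjusted p = 0.0768), breast pulp of batch I (0.0564) or dorsal pulp of batch I (0.0532), in a range of 0.00941 to 0.0768. DLX3 at -1.29 ± 0.40 (adjusted p = 0.0519) passed with the batch as a block (0.0239), with quantile normalization (0.0443) and without breast pulp of batch I (0.0131), in a range of 0.0131 to 0.208. MSX2 at -1.27 ± 0.41 (adjusted p = 0.0600) passed without breast pulp of either batch (0.00242 and 0.0456), in a range of 0.00242 to 0.22. For HEY1 the difference between tissues was -0.02 ± 0.15. The count of 2 became 1 without dorsal pulp or breast epithelium of batch I and 4 without breast pulp of batch I, where DLX3, MSX2 and DLX5 passed and ID1 did not.

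Other genes of the pathway were read from lists of ligands, receptors, transducers and antagonists. In remiges none of 34 passed in either tissue by limma. An unadjusted p under 0.05 was reached by 6 in each tissue, and by 468 of all 12954 genes in pulp and 424 in epithelium. With the block 1 of the 34, the antagonist gene GREM1, was higher in lateral pulp, where 0.17% of all genes were. Those with the highest level in pulp were the ligand gene GDF10 (-1.18, adjusted p = 0.69), the endothelial co-receptor gene ENG (-0.44), the transducer gene SMAD5 (-0.03) and FSTL1 (0.33), each of the last 3 at an adjusted p of 1.0. In epithelium they were BMP7 (-0.07), the type I receptor gene ACVR1 (-0.18), SMAD1 (-0.06) and the antagonist gene TWSG1 (-0.32), all at an adjusted p of 1.0. The paralogs HEYL in pulp (-0.32) and DLX4 in epithelium (-0.18) did not pass either. For GREM1 the pulp of the medial side had a group mean of 89.7 TPM, and that of the lateral side 655 TPM. The log2 fold change was 2.85 ± 0.28, with an adjusted p of 0.111 by limma and 0.0353 with the block. In dorsal against breast pulp, where 13.0% of all genes rose and 15.2% fell, 2 of 8 ligands rose and 5 fell, among them GDF10 (-4.92, adjusted p = 2.96e-06) and BMP6 (-0.58, adjusted p = 0.0146). Of 10 receptors and co-receptors 2 rose and 3 fell, with ENG at -1.37 (adjusted p = 6.4e-04) and the type II receptor gene listed as BMPR-II at -0.52 (adjusted p = 0.0204). Of 15 antagonists 3 rose and 6 fell. NBL1 and SOSTDC1, both encoding secreted BMP antagonists, had the highest level among those that passed. They rose by 0.67 (adjusted p = 2.66e-04) and 0.42 (adjusted p = 0.046). The largest rise was that of FST (2.21, adjusted p = 1.59e-05) and the largest fall that of CHRDL1 (-3.07, adjusted p = 1.43e-05). GREM1, GDF10 and FST had been singled out by the study in these samples, so their differences between narrow and wide vanes are not independent evidence.

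In dorsal against breast epithelium, where 8.55% of all genes rose and 9.1% fell, 1 of 8 ligands rose and 3 fell, with BMP2 at -1.03 (adjusted p = 0.00115) and BMP5 at 0.96 (adjusted p = 0.0201). Of 10 receptors and co-receptors 3 rose and 1 fell, with ACVR2A at 0.76 (adjusted p = 0.002) and the co-receptor gene RGMA at 0.54 (adjusted p = 0.0233). Of 15 antagonists 2 rose and 4 fell, with NBL1 at 0.33 (adjusted p = 0.0165) and BAMBI, a pseudoreceptor that is itself induced by BMPs, at -0.47 (adjusted p = 0.0389). Of 3 transducers only SMAD9 passed, falling in dorsal plumes by 1.08 in pulp (adjusted p = 4.18e-04) and by 0.60 in epithelium (adjusted p = 0.0133). Of 4 tested paralogs of the response genes 3 fell in dorsal pulp and 2 in dorsal epithelium. They included HEYL in both tissues (-1.66, adjusted p = 3.94e-05, and -0.65, adjusted p = 0.00918), DLX4 in pulp (-1.13, adjusted p = 0.0202) and DLX6, which neighbours DLX5, in epithelium (-1.38, adjusted p = 0.00469).

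The genes whose pattern over the 16 libraries was most like each response gene were found by Pearson r of log2(TPM + 1) among 6933 genes whose mean reached 25 TPM in some group. These values describe the libraries, which share tissue, feather type and batch. The epithelial genes had the closest matches: PROM2 (0.992), DLX4 (0.991) and CDH1 (0.990) for DLX3, REEP6 (0.989), ZNF750 (0.988) and GPR160 (0.987) for MSX2, and CLDN4 (0.986), TRPV3 (0.986) and ESRP1 (0.985) for DLX5. GHOX-7 was closest to IDH1 (0.976), TEF (0.969) and MYLIP (0.965). ID3 was closest to DKC1 (0.974), SGTA (0.963) and GJB6 (0.960), and ID2 to UBE2Q2 (0.943), ATG12 (0.937) and GNE (0.937). SMAD6 was closest to GFOD2 (0.923), ARHGEF7 (0.921) and CPSF3L (0.909). HEY1, with C3ORF64 (0.866), BID (0.842) and CRYZ (0.841), and ID1, with H2AFY (0.855), TFAM (0.845) and DPM1 (0.829), had no close match. For SMAD7 the nearest, HNRPK (0.977), ATP5A1W (0.966) and BTF3 (0.965), stood over values that separated remige batch II from all other libraries.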

How the data were processed

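RNA-seq (50 bp single-end, TruSeq with 4 μg of RNA) of 16 libraries in 8 groups was used. Per the labels and the study's methods, the authors made RPKM, which divide a gene's reads by its length and by library size, with TopHat2 and Partek on galGal4. Versions, annotation and strand setting are not given in the sources used here. The deposited tables, 1 per feather type, also hold a count of alignments per library, used for depth only. RPKM were rescaled to TPM. A linear model of log2(TPM + 1) on 4 group means, with 4 residual degrees of freedom per table, was fitted by limma 3.58.1 (eBayes with a trend, R 4.3.3) to genes whose mean reached 1 TPM in some group. Tests are two-sided and within a table; remiges and plumes are set side by side without a test. Alternatives were RPKM as deposited, a pseudocount of 0.1 TPM, no filter, quantile normalization, the batch as a block, and leaving out each library, where a lone library is taken to vary like the other groups. Samples were paired by the I or II of their labels. The change from batch I to II correlated across genes between sides (0.731 in remige pulp, 0.805 in remige epithelium) but hardly between plume tracts (0.045 and 0.089). The genes and lists were chosen with earlier results of these data known. All 10 genes were named, of each pathway list up to 2 that passed with the highest group mean per comparison (otherwise the 1 with the highest mean), and 3 most similar genes each. GREM1 was named in addition, as the antagonist that passed with the block. FST and CHRDL1 were added as the antagonists with the largest rise and fall in dorsal against breast pulp. All 10 matched a RefSeq gene (GRCg7b), and none overlaps another gene there. Figures were drawn with matplotlib 3.10.9 in Python 3.11.15.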

Additional observations from a re-analysis of the deposited data

Results flagged for a closer look

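The tract difference of GHOX-7 (chicken MSX1) was not the same in the 2 tissues of plumes. Dorsal minus breast was 3.66 on the log2 scale in pulp and 1.53 in epithelium, and the difference between them, 2.131 ± 0.24 (SE), had an adjusted p of 5.86e-04 by limma and passed in each of 13 alternatives. Dorsal libraries were above breast libraries in both tissues and both batches.

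ID1 also differed by tissue. Dorsal minus breast was -1.20 in pulp and -0.51 in epithelium, a difference of -0.683 ± 0.16 (adjusted p = 0.0154 by limma), which passed in 10 of 13 alternatives. Dorsal libraries were below breast libraries in both tissues and both batches.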

How the results depend on the processing

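With 2 libraries a group, calls that change when 1 library is left out cannot be settled here, and the RPKM hold no counts from which a counting error could be computed. Between remige sides the count of genes called over all genes was 0 in pulp and 1 in epithelium, and 36 and 6 with the batch as a replicate block, in which 2 response genes passed in pulp in place of 0; for the side difference between tissues it was 0, and 6 with the block. Among the response genes the block changed no other call than these and that of DLX3 in the plume difference between tissues. Over left-out libraries the response genes that passed ranged from 2 to 8 in plume pulp, 1 to 5 in plume epithelium and 1 to 4 for the plume difference between tissues, and all genes called ranged from 2084 to 4189, 829 to 2125 and 1724 to 2917.

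Signs turned only for genes that had not passed, and the cause was not tested. With RPKM as deposited the log2 fold changes were -0.002 for ID2 in remige pulp, 0.052 for HEY1 between remige tissues, 0.015 for HEY1 in the plume difference between tissues, and -0.031, -0.013 and -0.044 for ID3, MSX2 and DLX3 in plume epithelium. With quantile normalization they were 0.030 for GHOX-7 in remige pulp, 0.026 for ID2 and -0.006 for GHOX-7 in remige epithelium, 0.332 for SMAD7 and 0.219 for HEY1 between remige tissues, and -0.023, -0.076 and 0.036 for ID2, SMAD6 and GHOX-7 in the remige side difference between tissues. With a pseudocount of 0.1 TPM they were -0.067 for GHOX-7 in remige epithelium and 0.061 in the remige side difference between tissues.

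Over left-out libraries, the log2 fold changes ran in remige pulp from -0.85 to 0.17 for ID1, -0.48 to 0.49 for ID2, -0.41 to 0.030 for ID3, -1.12 to 0.86 for SMAD7 and -0.15 to 0.14 for GHOX-7. In remige epithelium they ran from -0.69 to 0.40 for ID1, -0.19 to 0.12 for ID2, -0.97 to 0.56 for SMAD7 and -0.28 to 0.32 for GHOX-7. Between remige tissues they ran from -0.79 to 0.20 for SMAD7 and -0.11 to 0.020 for HEY1. In the remige side difference between tissues they ran from -0.74 to 0.35 for ID1, -0.45 to 0.52 for ID2, -0.051 to 0.14 for SMAD6, -0.91 to 1.06 for SMAD7 and -0.33 to 0.28 for GHOX-7. In plume epithelium they ran from -0.081 to 0.15 for ID3, -0.070 to 0.17 for MSX2 and -0.037 to 0.076 for DLX3, and in the plume difference between tissues from -0.12 to 0.073 for HEY1 and -1.04 to 0.45 for DLX5.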
